A study of Mus musculus with 12 samples.

Results

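The genes described are 44 mouse genes that are induced by interferon, taken by their symbols from the 35976 genes listed in the count tables. They comprise 3 sensors of viral nucleic acid, 4 transcription factors, 1 feedback protease, 22 antiviral effectors, 8 interferon-induced GTPases, 3 chemokines and 3 genes of antigen processing. RNA-seq was done on scars of male mice aged 8 to 12 weeks, with 3 mice in each of 4 groups. Mice were wild type for Tem1 (Tem1 WT/WT) or Tem1 lacZ/lacZ, a line on the C57BL/6J background that lacks Tem1 in every cell because the single exon of the gene is replaced by the lacZ reporter. All 12 mice had a 1.5-cm wound of the back skin and a plastic device placed on it after 6 days. The device was extended by 1 mm per day to 8 mm in the traction groups and was not extended in the sham groups. Tem1, listed as Cd248, encodes endosialin, a membrane glycoprotein of fibroblasts and pericytes.

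Interferons are secreted proteins that warn cells of infection or damage. Type I interferons bind the IFNAR1 and IFNAR2 receptor chains, and interferon gamma, made by T and NK cells, binds IFNGR1 and IFNGR2. Both receptors activate JAK kinases, which phosphorylate STAT proteins. For type I interferons, a complex that holds STAT2 and IRF9 binds the interferon-stimulated response element (ISRE) of genes such as the Ifit and Oas families, and interferon gamma acts through the gamma-activated site (GAS) of genes such as Irf1. In skin, these genes are known to be switched on in wounds, infection and autoimmune inflammation.

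The members' genes lie on 15 chromosomes of GRCm38 by RefSeq, several of them in clusters. The 4 Ifit genes lie together on chromosome 19 between 34550550 and 34650009, and Gbp2, Gbp3, Gbp5 and Gbp7 on chromosome 3 between 142496934 and 142638008. Cxcl9, Cxcl10 and Cxcl11 lie together on chromosome 5, from 92321331 to 92363296, and Psmb9, Tap1 and Psmb8 on chromosome 17, from 34182030 to 34201454.

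Promoter sequences were read from RefSeq (GRCm38.p6) for 33 of the 44 members, as the 250 bases before the annotated start. They were searched for ISRE, written GAAANNGAAA on either strand, and for GAS, written TTCNNNGAA, whose fixed letters read the same on both strands. A member was counted if any of its windows held the letters, while the share over all genes is per window, so these units differ. ISRE letters were found for 18 of the 33 members and in 2.98% of the 32851 windows of all genes. GAS letters were found for 10 of the 33 and in 7.02% of all windows, and both motifs for 6 members. A motif overlapped the other kind only in Bst2 among the member windows. Most of the stretches below are shown because the genes were high in the library described next, that of Ifit1 because the gene was not, and that of Isg15 because it holds 3 overlapping ISRE matches. Capitals mark the motif letters, and each is printed 5′ to 3′ on the gene's strand. Gbp2 (chr3:142620589-142620628, plus strand), Gbp5 (chr3:142496684-142496905, plus), Igtp (chr11:58199496-58199546, plus), Irf1 (chr11:53769909-53769947, plus), Psmb8 (chr17:34198083-34198121, plus), Cxcl10 (chr5:92349078-92349117, minus), Oas3 (chr5:120777710-120777749, minus), Rsad2 (chr12:26456548-26456587, minus), Ifit1 (chr19:34640770-34640828, plus) and Isg15 (chr4:156200860-156200911, minus) read as follows.
Gbp2: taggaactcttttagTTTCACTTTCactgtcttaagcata
Gbp5: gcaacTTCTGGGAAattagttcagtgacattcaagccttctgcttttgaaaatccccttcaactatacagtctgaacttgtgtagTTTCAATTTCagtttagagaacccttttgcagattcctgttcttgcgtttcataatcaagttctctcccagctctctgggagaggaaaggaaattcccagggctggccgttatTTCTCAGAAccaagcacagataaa
Igtp: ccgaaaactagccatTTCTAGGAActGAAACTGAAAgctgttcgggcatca
Irf1: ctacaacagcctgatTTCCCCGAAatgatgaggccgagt
Psmb8: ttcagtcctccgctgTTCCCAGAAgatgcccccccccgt
Cxcl10: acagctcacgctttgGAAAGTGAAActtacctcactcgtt
Oas3: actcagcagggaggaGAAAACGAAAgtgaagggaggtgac
Rsad2: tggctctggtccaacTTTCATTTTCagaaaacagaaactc
Ifit1: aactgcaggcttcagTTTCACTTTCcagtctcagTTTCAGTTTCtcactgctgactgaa
Isg15: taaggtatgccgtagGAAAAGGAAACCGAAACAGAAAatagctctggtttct
Each of the 7 GTPase genes with an entry held an ISRE, and 4 of them also held a GAS. Irf1 held a GAS and no ISRE in these windows. The windows of Cxcl9, Tap1, Psmb9 and Oasl2, among other genes highest in the library described next, held neither set of letters. The motifs are letters in a window and not measured binding sites.

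Libraries held 41536788 to 64644293 counts. Levels are given as CPM, a gene's counts per 1000000 counts of its library, with library totals scaled by TMM. Cd248 was at 92.4 to 337 CPM in the 6 Tem1 WT/WT libraries and at 0 to 0.248 CPM in the 6 Tem1 lacZ/lacZ libraries, so each library matched its genotype label. Fibroblast and keratinocyte markers were detected in every library, as a scar of skin should give. Traction replicate 1 of Tem1 WT/WT stood apart from the other 11 libraries. Its 7 neutrophil markers that passed the filter summed to 7057 CPM, against 116 to 666 CPM elsewhere, and all 7 were at their highest there. An eighth, Ly6g, had 0 counts in 7 libraries and its highest count, 158, in this library. Its 10 T and NK cell markers summed to 115 CPM against 23.6 to 70.0 CPM. Of the 10, 5 were highest there, namely Cd3d, Cd3e, Cd3g, Cd2 and Cd4. Nkg7, Ncr1, Klrb1c and Prf1 were highest in sham replicate 1 of Tem1 WT/WT, and Cd8a in sham replicate 1 of Tem1 lacZ/lacZ. In traction replicate 1 of Tem1 WT/WT, the 10 macrophage and monocyte markers summed to 4558 CPM against 1743 to 4323 CPM, with 6 of the 10 highest there. The main values of the comparisons with this group are therefore given with and without that library. Their part in the results below was not tested. In whole tissue, more cells of a type and more RNA per cell cannot be told apart.

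**Figure D1:**
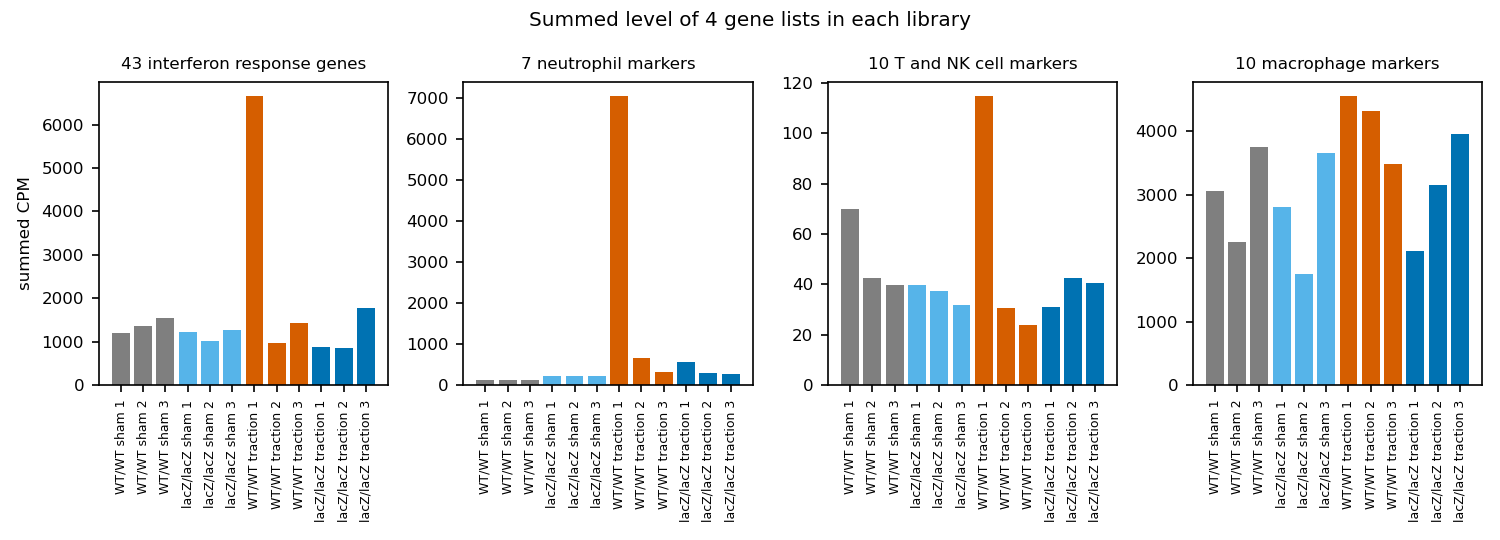
Summed CPM (y axis, linear from 0) in each of the 12 libraries (x axis) for the 43 interferon response genes tested and for the neutrophil, T and NK cell, and macrophage markers; bar colour gives the group. Traction replicate 1 of Tem1 WT/WT is the tallest bar in each panel, at 6662 CPM for the interferon response genes against 860 to 1767 CPM in the other libraries.

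Of the 44 members, 43 passed the filter on low counts. Isg15 encodes a ubiquitin-like antiviral protein. It had 0 to 2 counts in each library and was not tested. How reads that align to more than 1 place were counted is not given in the sources used here, so the level of Isg15 remains uncertain.

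The 43 members did not vary evenly over the 12 scars. In traction replicate 1 of Tem1 WT/WT 31 of the 43 were at their highest, and they summed to 6662 CPM. Traction replicate 3 of Tem1 lacZ/lacZ was highest in 8, traction replicate 3 of Tem1 WT/WT in 3 and sham replicate 2 of Tem1 WT/WT in 1. With the first of these set aside, replicate 3 of the Tem1 lacZ/lacZ traction group was highest in 25 of 43, at a sum of 1767 CPM. The lowest values lay mostly in 3 traction libraries, namely replicate 2 of Tem1 WT/WT (13 members) and replicates 1 and 2 of Tem1 lacZ/lacZ (11 and 13 members).

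**Figure D2:**
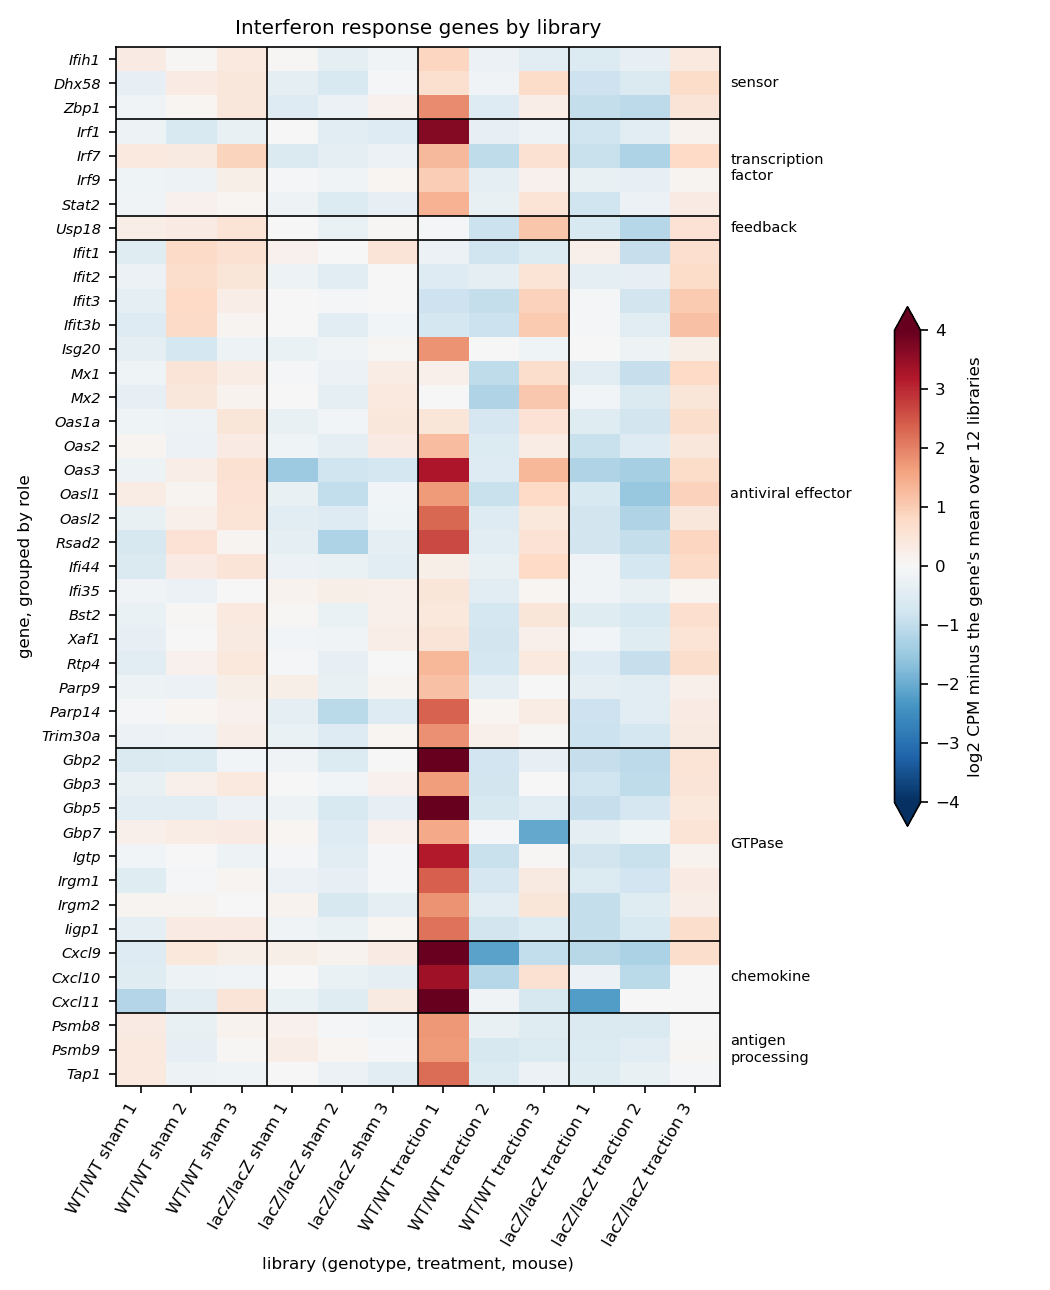
Heat map of the 43 genes (y axis, grouped by role) in the 12 libraries (x axis), coloured by log2 CPM minus the gene's mean over all libraries, with the scale ending at 4 on either side. Red fills the column of Tem1 WT/WT traction replicate 1 for 31 genes at their highest there, while the Ifit genes in that column are blue.

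The spread within a group was largest with traction. The range of log2 CPM over 3 mice had a median of 2.26 over the members in the Tem1 WT/WT traction group and 1.33 in the Tem1 lacZ/lacZ traction group, against 0.58 and 0.43 in the sham groups. Over all 18853 genes tested, these medians were 0.68, 0.61, 0.45 and 0.49. A range over 1, which is a 2-fold difference between mice of 1 group, was reached by 40, 33, 6 and 0 of the 43 members in the same order. Of all genes, 35%, 24.5%, 20.8% and 22% reached it. Between replicates 2 and 3 of the Tem1 WT/WT traction group alone, the median was 0.93 for the members and 0.35 for all genes. In the Tem1 lacZ/lacZ traction group, replicate 1 was above replicate 3 in 51.5% of all genes, and replicate 2 above it in 52.6%. Among the members, replicate 3 was above replicate 1 in all 43 and above replicate 2 in 42. Its summed neutrophil markers, 269 CPM, were below the 564 and 292 CPM of those replicates, and its summed adipocyte markers, 1528 CPM, were above their 227 and 140 CPM. Its macrophage markers summed to 3958 CPM against 2117 and 3159 CPM. Their part in the difference was not tested.

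The first comparison asks whether traction changed these genes in wild-type scars. The edgeR quasi-likelihood test called 0 of 43 members at a Benjamini-Hochberg adjusted p under 0.05, where it called 9.15% of all genes. At an unadjusted p under 0.05 it counted 11 of 43, which is 10 higher and 1 lower with traction, where 31.4% of all genes passed. The log2 fold change was above 0 in 36 of 43 members and in 49.4% of all genes, with a median of 0.54 for the members and −0.01 for all genes. Without traction replicate 1 the median was −0.16, with 14 above 0 and 29 below, 0 of 43 called, and 1.86% of all genes called. By role, the median with all libraries was 2.34 for the chemokines, 1.11 for the GTPases, 0.63 for antigen processing, 0.54 for the transcription factors, 0.26 for the sensors and 0.20 for the effectors. Without replicate 1 these were −0.26, −0.22, −0.48, 0.02, −0.24 and −0.07 in the same order. Of the 43 members, 1 did not overlap between groups, where 35.7% of all genes did not.

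Among the transcription factors, Irf1, the factor first found at the interferon beta promoter, was at 58.3, 44.4 and 55.2 CPM in the Tem1 WT/WT sham scars and at 859, 54.4 and 59.1 CPM with traction. A single mouse was 15.8-fold above the median of the other 11 libraries, and the other traction mice lay in or just above the sham range. Irf1 had a log2 fold change of 2.62 ± 0.88 (SE, adjusted p = 0.0771, edgeR) and 0.09 ± 0.27 without that library. Stat2 and Irf9, which encode parts of the ISRE-binding complex, were at 126 and 108 CPM in that library and at 27.5 to 70.6 and 41.8 to 64.1 CPM in the others.

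Irf7, which drives later type I interferon production, was also highest in that library, 2.88-fold above the median of the others. It was at 41.9, 40.7 and 59.4 CPM in sham and at 78.6, 15.8 and 48.8 CPM with traction. The 3 traction mice thus spanned the whole sham range, and its log2 fold change was 0.01 ± 0.57 (SE), or −0.58 ± 0.58 without replicate 1.

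The GTPases attack the vacuoles of intracellular pathogens. Gbp2 was at 43.4, 44.1 and 59.6 CPM in sham and at 1434, 37.9 and 50.9 CPM with traction. Gbp5 was at 11.2, 11 and 12.9 CPM in sham and at 355, 9.72 and 11.4 CPM with traction. Replicate 1 was 32.5-fold above the median of the other libraries for Gbp2 and 31.7-fold for Gbp5, while replicates 2 and 3 lay within or below the sham range. Their log2 fold changes were 3.37 ± 1.16 (SE) for Gbp2 (adjusted p = 0.0801, edgeR) and 3.42 ± 1.14 for Gbp5 (adjusted p = 0.075, edgeR, the smallest among the members). Without replicate 1 these were −0.16 ± 0.42 and −0.17 ± 0.35.

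The other GTPases gave smaller ratios of replicate 1 to the median of the other libraries, from 2.67-fold for Gbp7 and 3.22-fold for Gbp3 to 9.81-fold for Igtp. All 8 were highest in that library. Gbp7 also had a low value, 10.9 CPM in replicate 3 of the same group, against 30.9 to 64.4 CPM in the 10 libraries other than these. Per kilobase of exon, Gbp2 led the group in Tem1 WT/WT sham scars, at a mean of 19.5 CPM per kilobase, followed by Igtp at 12.6 and Gbp3 at 12.4, and Gbp5 was lowest at 1.76.

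**Figure D3:**
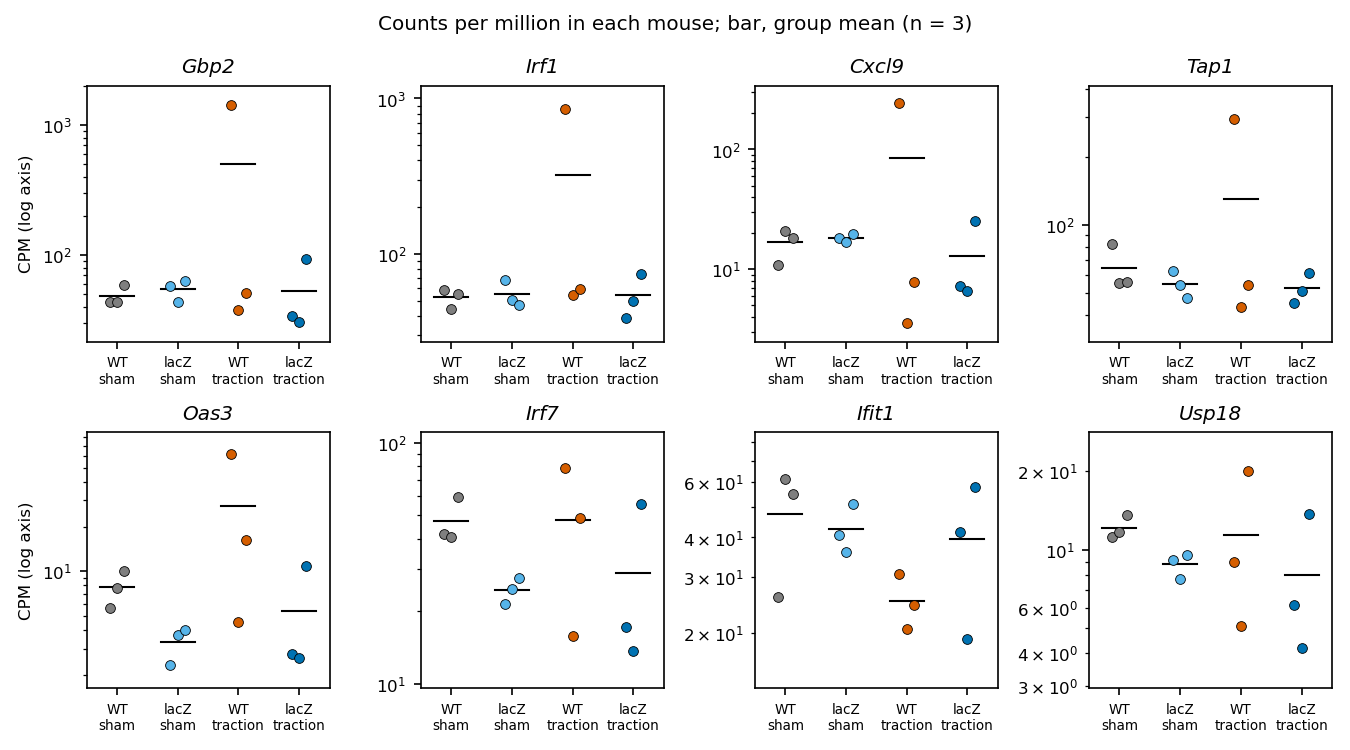
CPM of 8 members (1 panel each, log y axis) in each mouse of the 4 groups (x axis), with the group mean as a bar (n = 3). For Gbp2, Irf1, Cxcl9 and Tap1 a single Tem1 WT/WT traction mouse lies far above the other 11, while Ifit1 and Usp18 show no such point.

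The chemokines CXCL9, CXCL10 and CXCL11 draw in T cells through the receptor CXCR3. Cxcl9 was at 10.9, 21 and 18.2 CPM in sham and at 242, 3.53 and 7.81 CPM with traction, so replicate 1 lay above and both other traction mice below every sham mouse. Its log2 fold change was 2.33 ± 1.21 (SE, adjusted p = 0.211, edgeR) and turned to −1.59 ± 0.59 without replicate 1 (adjusted p = 0.126, edgeR). Cxcl10 was at 5.77, 7.09 and 7.29 CPM in sham and at 84.6, 3.64 and 12.5 CPM with traction. Cxcl11 was near the limit of detection, at 0 to 0.229 CPM in 11 libraries and 4.09 CPM in replicate 1.

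Tap1, which carries peptides to MHC class I molecules, was at 81.9, 55 and 55.7 CPM in sham and at 293, 43.3 and 54.0 CPM with traction. The immunoproteasome subunits Psmb8 and Psmb9 were at 186 and 44.9 CPM in replicate 1 and at 36.8 to 69.4 and 8.70 to 17.9 CPM elsewhere. Apart from replicate 1, the traction mice lay below every sham mouse for all 3 of these genes. The fold changes of Tap1 were 1.02 ± 0.58 on the log2 scale (SE, adjusted p = 0.252, edgeR) and −0.42 ± 0.22 without that library.

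The antiviral effectors split into genes that were high in replicate 1 and genes that were not. Of the 21 tested, 11 were at their highest in it, 7 in Tem1 lacZ/lacZ traction replicate 3, 2 in Tem1 WT/WT traction replicate 3 and 1 in a sham library. Oas3, an enzyme that makes the activator of RNase L, was 13.6-fold above the median of the other libraries, Rsad2 (viperin) 8.08-fold, Oasl2 6.11-fold and Parp14, an ADP-ribosyltransferase, 5.32-fold. Parp14, the most abundant effector by CPM, was at 79.6, 88.3 and 92.4 CPM in sham and at 424, 87.2 and 102 CPM with traction (log2 fold change 1.24 ± 0.54, SE, and 0.11 ± 0.31 without replicate 1). Isg20, an exonuclease, was the single member whose groups did not overlap, at 14.1, 11.4 and 16.0 CPM in sham and 63.5, 18.2 and 16.2 CPM with traction (log2 fold change 1.24 ± 0.44, SE, adjusted p = 0.0851, edgeR, and 0.30 ± 0.20 without replicate 1, adjusted p = 0.345).

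The Ifit genes, whose products bind viral RNA, did not follow that library. In replicate 1, Ifit1, Ifit2, Ifit3 and Ifit3b were at 0.753-, 0.805-, 0.574- and 0.63-fold of the median of the other libraries, and Ifit2 was at its lowest of all 12. Ifit1 was at 25.9, 61.4 and 54.8 CPM in sham and at 30.7, 20.6 and 24.5 CPM with traction. All 3 traction mice lay below 2 of the 3 sham mice, and the log2 fold change of −0.91 ± 0.39 (SE) did not pass the test (adjusted p = 0.144, edgeR). Ifit1 was the member counted as lower at the unadjusted threshold. Ifit3 and Ifit3b were highest in Tem1 lacZ/lacZ traction replicate 3 (67.7 and 16.4 CPM), followed by Tem1 WT/WT traction replicate 3 (63.0 and 15.2 CPM). These 2 genes are nearly identical copies, with 3.8 to 5.92 times as many counts on Ifit3, and the division of reads between them is uncertain. Mx1, Mx2, Bst2, Xaf1, Ifi44 and Oas1a were also not highest in replicate 1.

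Usp18, a protease that removes ISG15 from proteins and shuts off type I interferon receptor signalling, was also not highest in replicate 1. It was at 11.2, 11.7 and 13.6 CPM in sham and at 8.99, 5.08 and 20.2 CPM with traction. Among the sensors, Ifih1 (MDA5) was at 46.2, 37.5 and 47.9 CPM in sham and at 65.9, 31.2 and 27.3 CPM with traction, with groups that overlapped. Zbp1, a sensor of Z-form nucleic acid, was 4.09-fold above the median of the other libraries in replicate 1, and Dhx58 (LGP2) 1.74-fold.

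**Figure D4:**
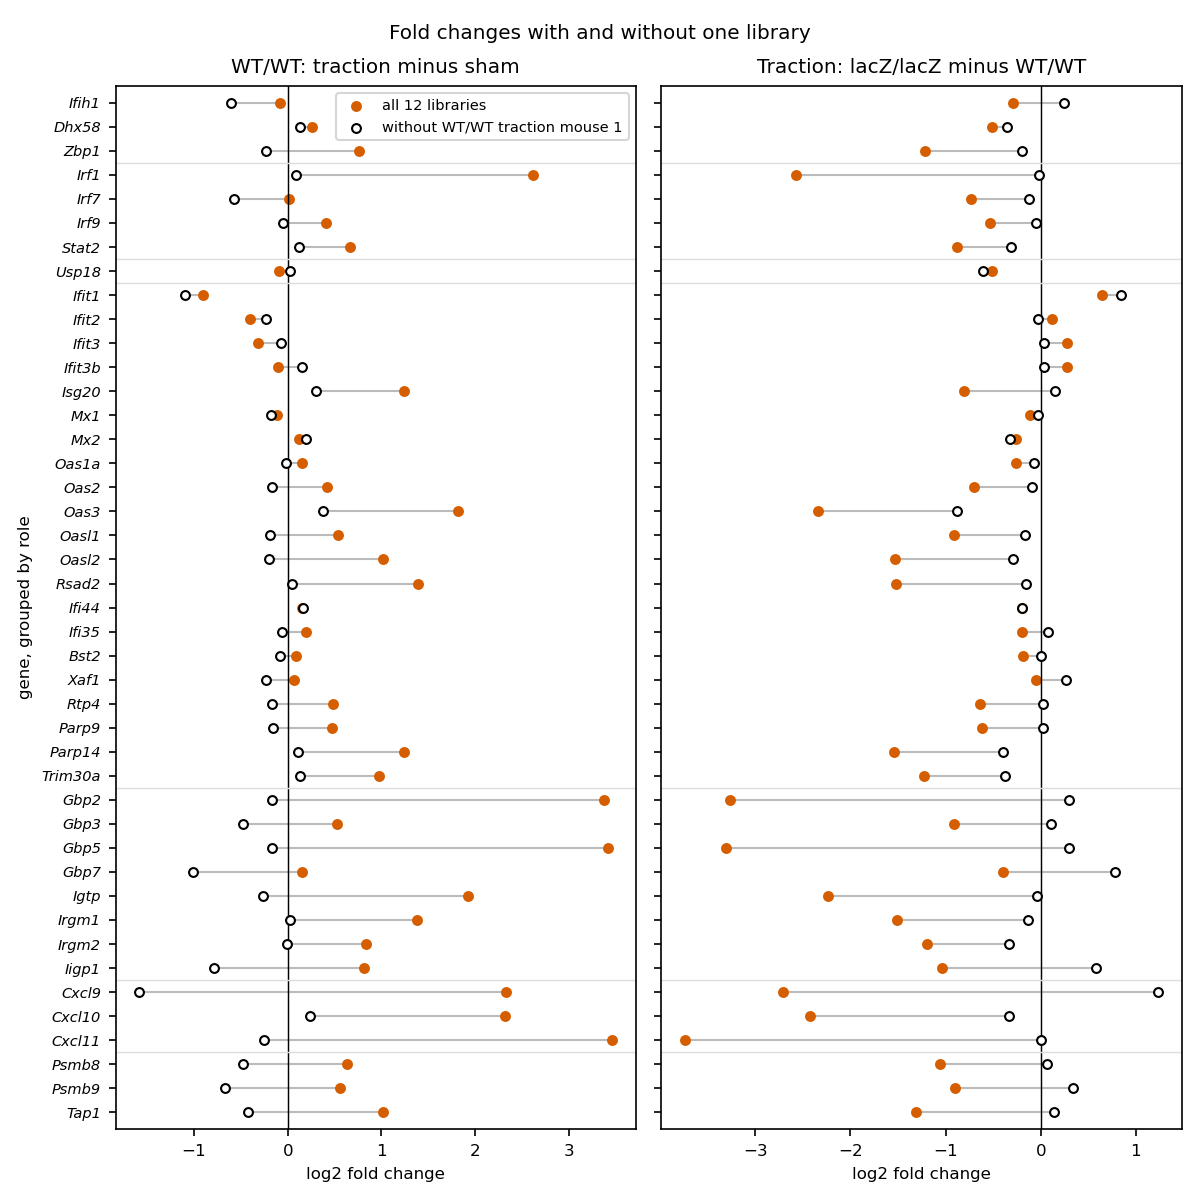
Log2 fold change (x axis) of the 43 genes (y axis, by role) for traction against sham in Tem1 WT/WT (left) and for Tem1 lacZ/lacZ against Tem1 WT/WT with traction (right), from all 12 libraries (filled) and without Tem1 WT/WT traction replicate 1 (open). The open points gather around 0, with medians of −0.16 and −0.03, where the filled points have medians of 0.54 and −0.87.

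The second comparison asks whether the genotypes differed after traction. It shares the Tem1 WT/WT traction mice with the first. Of the 43 members, 0 were called by edgeR at an adjusted p under 0.05 (0.106% of all genes were), and 14 passed at an unadjusted p under 0.05, all lower in Tem1 lacZ/lacZ (26.1% of all genes passed, in either direction). The log2 fold change was above 0 in 4 members and in 51% of all genes, and its median was −0.87. Without Tem1 WT/WT traction replicate 1 the median was −0.03, with 20 above 0 and 23 below, 0 of 43 called and 0.0722% of all genes called. By role, the median with all libraries was −2.71 for the chemokines, −1.35 for the GTPases, −1.06 for antigen processing, −0.80 for the transcription factors, −0.51 for the sensors and −0.26 for the effectors. Without that library these were 0.01, 0.20, 0.14, −0.08, −0.19 and −0.03, so the order of the roles rested on it. The groups overlapped for each of the 43 members, where 26.6% of all genes did not overlap.

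Gbp2 was at 34.3, 30.9 and 93.5 CPM in the Tem1 lacZ/lacZ traction scars, against 1434, 37.9 and 50.9 CPM in Tem1 WT/WT. Replicate 3 of the Tem1 lacZ/lacZ group was above both of the lower wild-type mice. Gbp2 had a log2 fold change of −3.26 ± 1.15 (SE, adjusted p = 0.125, edgeR), and 0.29 ± 0.43 without the high wild-type library. Gbp5 was at 8.08, 9.50 and 20.4 CPM in Tem1 lacZ/lacZ with traction, against 355, 9.72 and 11.4 CPM, and gave −3.31 ± 1.14 (adjusted p = 0.119, edgeR), or 0.30 ± 0.35 without that library. Irf1 was at 38.9, 49.9 and 74.7 CPM in Tem1 lacZ/lacZ with traction, and its log2 fold change was −2.57 ± 0.88 (adjusted p = 0.119, edgeR), or −0.02 ± 0.27 without that library. Oas3, at 2.76, 2.57 and 10.9 CPM against 61.7, 4.53 and 16.1 CPM, had a log2 fold change of −2.34 ± 0.83, which was −0.88 ± 0.65 without the library. Ifit1 was at 41.5, 19 and 57.8 CPM and had a positive log2 fold change of 0.64 ± 0.39 (adjusted p = 0.318, edgeR). The other members above 0 were Ifit2, Ifit3 and Ifit3b. Ifit3b was at 7.02, 5.28 and 16.4 CPM in Tem1 lacZ/lacZ and at 4.43, 4 and 15.2 CPM in Tem1 WT/WT (log2 fold change 0.28 ± 0.57, or 0.04 ± 0.59 without Tem1 WT/WT replicate 1), with replicate 3 the highest in both groups.

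The calls in both comparisons turned on which library of that group was in the fit. Without Tem1 WT/WT traction replicate 2, which had the lowest summed level of the group, edgeR called 8 members higher with traction (14.7% of all genes were called) and 10 lower in Tem1 lacZ/lacZ than in Tem1 WT/WT with traction (7.32% of all genes). The 8 were Irf1, Gbp2, Gbp5, Igtp, Irgm1, Cxcl10, Oas3 and Isg20. The 10 were Irf1, Stat2, Gbp2, Gbp5, Igtp, Irgm1, Irgm2, Cxcl10, Oas3 and Parp14. With all 12 libraries, DESeq2's Wald test called Igtp, Cxcl10 and Isg20 higher with traction in Tem1 WT/WT (21.6% of all genes with an adjusted p) and Igtp, Cxcl10, Oas3 and Parp14 lower in Tem1 lacZ/lacZ with traction (13.2%). It gave no p in any comparison for 6 members, Irf1, Iigp1, Gbp2, Gbp5, Cxcl9 and Cxcl11. Each of these was highest in Tem1 WT/WT traction replicate 1, and the DESeq2 counts leave them out.

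The third comparison asks what traction did in Tem1 lacZ/lacZ scars. Of the 43 members, 0 were called and 0 passed at an unadjusted p under 0.05, where edgeR called 0% of all genes and 8.12% passed unadjusted. The log2 fold change was above 0 in 19 members and in 48.5% of all genes, and its median was −0.03. The largest positive values were those of Oas3, 0.70 ± 0.80 (SE), and Rsad2, 0.58 ± 0.72, and the largest negative ones those of Cxcl9, −0.50 ± 1.16, and Psmb9, −0.39 ± 0.53, among members at 1 CPM or more on average. Oas3 was at 2.31, 3.70 and 3.98 CPM in sham and at 2.76, 2.57 and 10.9 CPM with traction. Cxcl9 was at 18.3, 17.0 and 19.6 CPM in sham and at 7.17, 6.52 and 25.1 CPM with traction. Rsad2 was at 10.5, 5.79 and 10.6 CPM in sham and at 8.13, 7.13 and 25 CPM with traction. In these 3 genes replicate 3 lay above all sham mice while the other traction mice did not. Psmb9 was at 16.3, 14.6 and 13.2 CPM in sham and at 9.34, 10.1 and 14.3 CPM with traction, with overlap through that same replicate. Without that replicate the median of the members was −0.45, and without replicate 1 or 2 it was 0.20. Ifi35, which did not overlap, was at 21.7, 23.4 and 22.7 CPM in sham and 17.9, 16.1 and 20.8 CPM with traction (log2 fold change −0.31 ± 0.20, adjusted p = 0.683, edgeR), where 12.9% of all genes did not overlap.

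The fourth comparison sets the genotypes side by side in sham scars, where the spread within groups was small. Of the 43 members, 0 were called and 0 passed at an unadjusted p under 0.05 in edgeR, where 0.0106% of all genes were called and 11.7% passed unadjusted. The log2 fold change was above 0 in 9 members, against 48.6% of all genes, and its median was −0.18. The lowest Tem1 WT/WT value was above the highest Tem1 lacZ/lacZ value in 8 of the 43 (18.6%), where 13.8% of all genes lay that way and 26.8% did not overlap in either direction. These 8 were Irf7, Stat2, Ifih1, Usp18, Oas3, Oasl1, Parp14 and Gbp7, and Ifi35 lay the other way. Irf7 was at 41.9, 40.7 and 59.4 CPM in Tem1 WT/WT and at 21.4, 24.7 and 27.3 CPM in Tem1 lacZ/lacZ (log2 fold change −0.95 ± 0.58, SE, adjusted p = 0.518, edgeR). Oas3 was at 5.67, 7.70 and 9.96 CPM against 2.31, 3.70 and 3.98 CPM (log2 fold change −1.22 ± 0.81, SE, adjusted p = 0.551, edgeR). Parp14 was at 79.6, 88.3 and 92.4 CPM against 63.9, 39.3 and 57.3 CPM. The 3 chemokines had values of 0.05 to 0.14 on the log2 scale, close to 0. Isg20 was at 15.3, 16.5 and 18.9 CPM in Tem1 lacZ/lacZ and 14.1, 11.4 and 16.0 CPM in Tem1 WT/WT (log2 fold change 0.29 ± 0.43), and Ifi35 at 21.7, 23.4 and 22.7 against 18, 16.6 and 20.1 CPM (0.31 ± 0.20). The standard errors come from all 12 libraries, so the wide spread of the traction groups enters them.

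The genotype by traction interaction asks whether traction acted differently in the genotypes. It called 0 of 43 members (0% of all genes were called), and 2, Gbp2 and Irf1, passed at an unadjusted p under 0.05 (8.91% of all genes passed). The interaction was above 0 in 9 members and in 49.8% of all genes. Its median over the members was −0.69, and without Tem1 WT/WT traction replicate 1 it was 0.21, with 31 members above 0 and 12 below. Gbp2 had an interaction of −3.44 ± 1.53 (SE, adjusted p = 0.555, edgeR) with all libraries and 0.14 ± 0.57 without that one. The largest positive interactions were 0.80 ± 0.55 for Ifit1 and 0.69 ± 0.53 for Ifit2, with adjusted p of 0.649 and 0.68 (edgeR). Ifit2 was at 31.9, 60.3 and 52.8 CPM in Tem1 WT/WT sham and 26.4, 28.5 and 55 CPM with traction, and at 32.8, 27.6 and 37.4 CPM in Tem1 lacZ/lacZ sham and 28.2, 29.6 and 61.8 CPM with traction. Its groups overlapped under both genotypes.

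Around the members, 57 other genes of the interferon pathway were listed and 37 were tested. Of 21 interferon genes, 14 had 0 counts in all 12 libraries, Ifnb1 among them, and those with counts other than Ifng had at most 12 in a library. Ifng, the gene of interferon gamma, had 112 counts (2.67 CPM) in Tem1 WT/WT traction replicate 1 and 0 to 0.415 CPM in the other libraries (log2 fold change 2.22 ± 1.49 with traction, SE, adjusted p = 0.33, edgeR). The other Tem1 WT/WT traction mice had 0 and 2 counts of it, against 6, 12 and 16 in sham, and without replicate 1 the sign turned (−3.05 ± 1.44, adjusted p = 0.203, edgeR).

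Of the 37 genes, 6 were called higher with traction in Tem1 WT/WT and 0 lower, where edgeR called 5.61% of all genes higher. They were the receptor chains Ifnar1, Ifnar2 and Il10rb, the last shared by interferon lambda and interleukin 10 family receptors, Tmem173 (STING), the adaptor of cytosolic DNA sensing, and the signalling inhibitors Socs1 and Socs3. For each of the 6, all 3 traction mice lay above the 3 sham mice, as they did in 17.7% of all genes. The 6 were picked by their adjusted p in these same mice, so this adds no separate evidence. Endothelial markers moved in the same way: 4 of the 5 were called higher in this comparison, with a median log2 fold change of 1.29, and they summed to 739, 795 and 820 CPM with traction against 242, 344 and 385 CPM in sham. Fibroblast markers summed to 19780, 31120 and 54600 CPM against 12770, 14280 and 17410 CPM. Col1a1 and Col1a2, the 2 with the highest counts among them, were both highest in traction replicate 3 of Tem1 WT/WT. Of the 6 fibroblast markers, 4 had a log2 fold change above 0 and 2 below, from −0.38 to 1.68, and 1 was called higher. Of the 7 neutrophil markers tested, 4 were called higher. Their part in the 6 calls was not tested. Ifnar1 was at 89.0, 91.9 and 111 CPM in sham and at 192, 167 and 162 CPM with traction, with no overlap (log2 fold change 0.84 ± 0.15, SE, adjusted p = 0.0252, edgeR). It was the one pathway gene still called without replicate 1, at 0.74 ± 0.16 (adjusted p = 0.0487, edgeR). Ifnar2 was at 43, 39.0 and 48.2 CPM in sham and at 108, 80.2 and 66.8 CPM with traction (log2 fold change 0.97 ± 0.21, SE, adjusted p = 0.0311, edgeR), and without replicate 1 its value was 0.74 ± 0.20 (adjusted p = 0.0638). Tmem173 was at 28, 24.3 and 38 CPM in sham and at 89.4, 57.6 and 52.4 CPM with traction (log2 fold change 1.14 ± 0.23, adjusted p = 0.03), and Il10rb at 38.5, 31.5 and 49.5 against 81.1, 64.6 and 65.6 CPM (0.82 ± 0.21, adjusted p = 0.0398).

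Socs3, a feedback inhibitor of cytokine receptors that also follows interleukin 6, was at 26.9, 27.2 and 44.4 CPM in sham and at 1031, 131 and 79.3 CPM with traction. All 3 traction mice were above the sham mice, with 1 far above the others (log2 fold change 3.66 ± 0.84, SE, adjusted p = 0.0333, edgeR, and 1.67 ± 0.37 without replicate 1, adjusted p = 0.05, which did not pass). Socs1, a feedback inhibitor of interferon gamma signalling, was at 1.80, 2.34 and 2.16 CPM in sham and at 24.9, 3.40 and 4.81 CPM with traction (log2 fold change 2.39 ± 0.64, SE, adjusted p = 0.044, edgeR), which was 0.94 ± 0.33 without replicate 1 (adjusted p = 0.106). Ifnlr1, the chain particular to interferon lambda, had a log2 fold change of −0.69 ± 0.26 (adjusted p = 0.0995, edgeR, and −1.02 ± 0.24 without replicate 1, adjusted p = 0.0528), Ifngr2 one of 0.39 ± 0.13 (adjusted p = 0.0778) and Ifngr1 one of 0.42 ± 0.23 (adjusted p = 0.231). The 6 calls rest on the libraries in the fit. None of the 6 passed without Tem1 WT/WT sham replicate 1 (smallest adjusted p = 0.116) or 2 (0.0869), without Tem1 lacZ/lacZ sham replicate 3 (0.0502), or when only the 6 libraries compared were fitted (0.0748). In the same order, these fits called 0 of 19308, 0 of 19411, 169 of 19366 and 0 of 17762 genes in this comparison. The loss of calls was thus not particular to the 6 genes.

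In the Tem1 lacZ/lacZ traction scars, Ifnar1 was at 90.6, 115 and 104 CPM, all below the Tem1 WT/WT traction mice and 2 of the 3 above the 81.4 to 96.6 CPM of the Tem1 lacZ/lacZ sham mice. Its log2 fold change against Tem1 WT/WT with traction was −0.75 ± 0.15 (SE, adjusted p = 0.0829, edgeR), and its interaction −0.64 ± 0.21 (adjusted p = 0.548). In edgeR with all 12 libraries, 0 of the 37 pathway genes were called in the comparisons other than traction in Tem1 WT/WT. At an unadjusted p under 0.05, 17 of 37 passed between the genotypes with traction (26.1% of all genes), 1 with traction in Tem1 lacZ/lacZ (8.12%), 1 in sham (11.7%) and 7 in the interaction (8.91%). Between the genotypes with traction, DESeq2 called 10 of the 37 lower in Tem1 lacZ/lacZ, where it called 13.2% of all genes in either direction. Among the 10 were Ifnar1 at −0.77 ± 0.16 (adjusted p = 0.000272, DESeq2) and Socs3 at −3.23 ± 0.72 (adjusted p = 0.000828, DESeq2). Without Tem1 WT/WT traction replicate 2, edgeR called 5 of the 37 lower in this comparison, namely Socs1, Socs3, Ifnar1, Tapbp and Ddx58. In that fit 7.32% of all genes were called in either direction. Tlr9, a sensor of DNA in endosomes, was called lower in Tem1 lacZ/lacZ sham by DESeq2 (adjusted p = 0.0488). It was called higher with traction in Tem1 lacZ/lacZ by weighted limma-voom (adjusted p = 0.0445). The same call came from edgeR without Tem1 lacZ/lacZ traction replicate 1 (adjusted p = 0.0426). With all 12 libraries, the smallest edgeR adjusted p among the 11 upstream sensors and adaptors, Tlr9 included, was 0.409 in sham. With traction in Tem1 lacZ/lacZ it was 0.598. The share of all genes called by the 3 alternative fits in these comparisons is not given here.

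**Figure D5:**
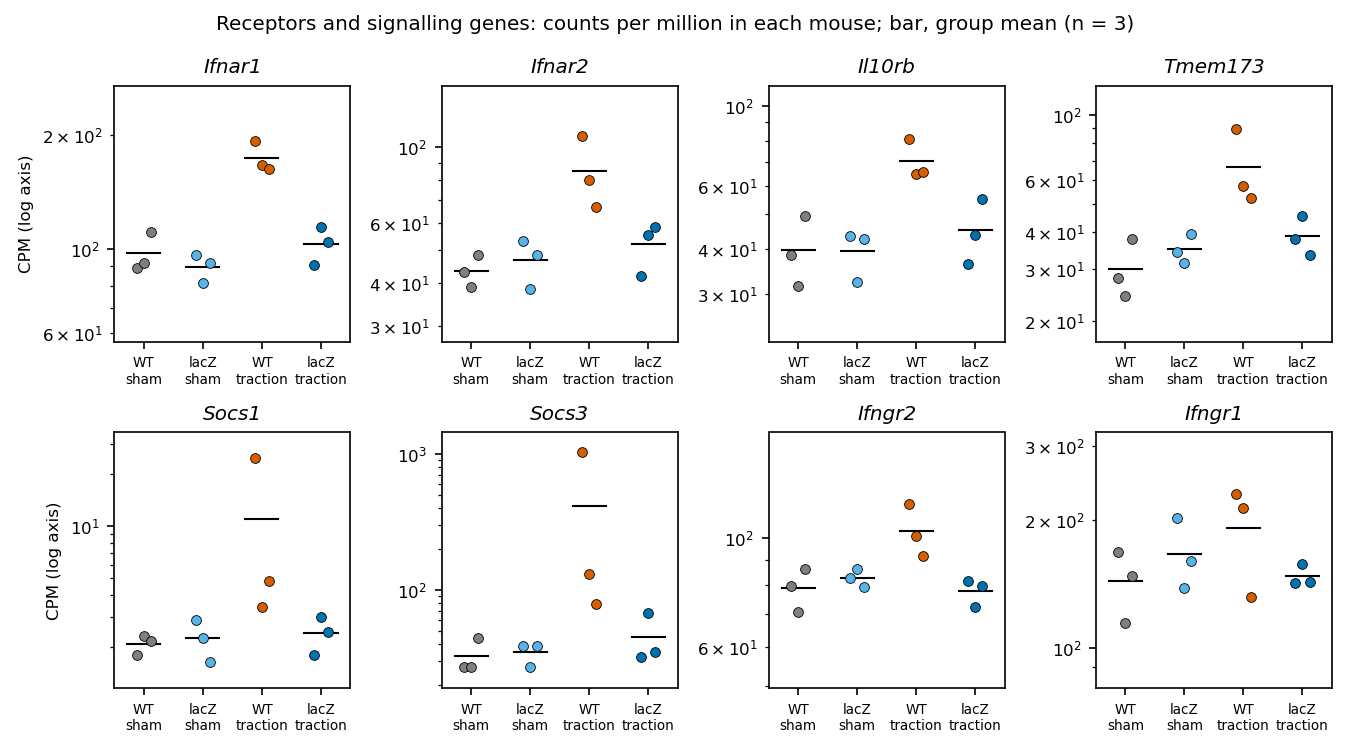
CPM of 8 genes of interferon signalling (1 panel each, log y axis) in each mouse of the 4 groups (x axis), with the group mean as a bar (n = 3). For Ifnar1, Ifnar2, Il10rb and Tmem173 all 3 Tem1 WT/WT traction mice lie above the sham mice, while for Ifngr1 the groups overlap.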

How the data were processed

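Scars of 12 mice, 3 in each of 4 groups, were analysed by RNA-seq. The authors extracted RNA from a part of each scar, made stranded poly(A) libraries, trimmed reads with fastp 0.20.0, aligned them to GRCm38 with HISAT2 2.1.0 and counted them on genes with featureCounts 2.0.0. They deposited the counts per gene as whole numbers, without normalization. Which annotation was counted, whether strand was used and how multi-mapping reads were treated is not given in the sources used here.

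The members, their roles and the pathway and marker lists were chosen with earlier results of these data known. Genes were filtered with filterByExpr in edgeR 4.0.16 (R 4.3.3), which kept 18853, scaled by TMM and fitted by robust quasi-likelihood in 1 model of the 4 groups (residual degrees of freedom: 8). All tests are two-sided, with Benjamini-Hochberg adjustment over all genes tested, and SE is that of the fitted log2 fold change. The study names 3 mouse scars per group. No source used here says how the mice were housed or matched. Within each group, no library was a copy of another, and libraries of different groups were not compared for this. CPM per kilobase used the exon length of GENCODE M21. Alternatives, one of them added after seeing the data, were run with DESeq2 1.42.0 and limma 3.58.1. The fit was first tested on simulated data.

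A rule chose the genes whose library values are given, in some or all of the 4 groups. It took members called in a comparison and the member with the highest mean CPM in each role. It also took, per comparison, the 2 most positive and 2 most negative log2 fold changes among members with mean log2 CPM at least 0. From the pathway list it took the interferon genes, receptors and called genes. For Ifngr1, Ifngr2 and Ifnlr1 the text gives fold changes only. One pathway gene that the rule names is not reported here. Members named beyond these, among them Irf7 in the first comparison, Stat2, Irf9, Zbp1, Isg20, Cxcl10 and the Ifit3 pair, were chosen after their values were seen.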

Additional observations from a re-analysis of the deposited data

How the results depend on the processing

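The alternatives were other filters (genes with at least 1 count, or at least 10 in every library), DESeq2's size factors or upper quartile scaling, the Wald test of DESeq2, weighted limma-voom, a non-robust fit, a block for the replicate number, the libraries compared alone, and leaving out each library. Limma-voom without sample weights was added after seeing the data. The number of members called stayed at 0 under each alternative, except with DESeq2, at 3 with traction in Tem1 WT/WT and 4 between genotypes with traction, and without Tem1 WT/WT traction replicate 2, at 8 and 10. Leaving out single libraries thus gave 0 to 8 and 0 to 10. The median log2 fold change of the members between genotypes with traction ranged from −1.28 without Tem1 lacZ/lacZ traction replicate 3 to −0.026 without Tem1 WT/WT traction replicate 1, and that of the interaction from −1.12 to 0.21 in the same fits. With traction in Tem1 WT/WT it ranged from −0.16 to 0.94, and with traction in Tem1 lacZ/lacZ from −0.45 to 0.20. Limma-voom with sample weights gave Tem1 WT/WT traction replicate 1 the lowest weight, 0.356, and Tem1 lacZ/lacZ traction replicate 1 the next, 0.373. With these weights, the medians of the members moved to −0.022 between genotypes with traction and 0.14 for the interaction. Upper quartile scaling shifted the median of all genes to −0.12 with traction in Tem1 WT/WT and 0.14 between genotypes with traction, and those of the members to 0.40 and −0.73. The spread of library medians within groups was 0.66 (SD, log2).

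Replicate numbers come from the sample labels and belong to different mice. Over all genes, same-numbered libraries correlated above 0.1 in 8 of 18 pairs, from −0.32 to 0.25. Over the members, the correlations of these pairs ran from −0.42 to 0.56. Libraries with different numbers were not compared in this way, so the correlations cannot decide whether the numbers pair the samples. With the replicate block, 0 members were called in each comparison, and the medians were 0.38, −0.05, −0.81, −0.20 and −0.54 in the order of traction in Tem1 WT/WT, traction in Tem1 lacZ/lacZ, genotype with traction, genotype in sham, and interaction. Of the 6 pathway genes called with traction in Tem1 WT/WT, 4 passed with the block, and Socs1 and Socs3 did not (adjusted p = 0.0744 and 0.059, edgeR).

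Some single genes changed sign when a library was left out. With traction in Tem1 WT/WT these ranges were −0.60 to 0.15 for Ifih1, −0.78 to 0.28 for Usp18, −0.16 to 3.93 for Gbp2, −1.58 to 2.91 for Cxcl9, −0.42 to 1.45 for Tap1 and −0.17 to 3.98 for Gbp5. Between genotypes with traction these ranges were −0.63 to 0.25 for Ifih1, −1.15 to 0.20 for Usp18, −3.96 to 0.29 for Gbp2, −3.63 to 1.24 for Cxcl9, −1.73 to 0.14 for Tap1, −0.36 to 1.20 for Ifit3b and −3.85 to 0.30 for Gbp5. With traction in Tem1 lacZ/lacZ these ranges were −0.33 to 1.06 for Oas3 and −0.24 to 0.89 for Rsad2. In the interaction these ranges were −4.15 to 0.14 for Gbp2 and −3.86 to 0.32 for Gbp5. Limma-voom with sample weights also turned the sign, to 0.15 for Ifih1, 0.074 for Usp18, 0.70 for Cxcl9 between genotypes with traction, and to −1.01 for Cxcl9 with traction in Tem1 WT/WT.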
